A study of Mus musculus with 9 samples.

Results

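A set of marker genes of the primed epiblast and of gastrulation, chosen by name, was followed through RNA-seq of E14 mouse ESCs in which Dppa2 or Dppa4 had been knocked down. The 10 genes are Fgf5, Pou3f1, Otx2, Zic2, Lef1, T, Eomes, Mixl1, Gsc, and Cdh2, out of 25965 genes in the deposited table, and the rule that selects them is a list of names. E14 is an established line of mouse embryonic stem cells on the 129/Ola background, and all groups were grown without feeder cells in serum with LIF, the cytokine that holds ESCs in self-renewal. Cells received control siRNA, Dppa2 siRNA, or Dppa4 siRNA at the start and again at 48 h, and were collected at 96 h (day 4), with 3 libraries of polyadenylated RNA for each treatment and 9 in all. All groups went through both transfections, and the knockdowns act on a single line. The study describes its knockdowns in ESCs that carry the reporters MERVL::tdTomato and Zscan4c::eGFP. The labels call the libraries A, B, and C within a treatment. The study describes replicates of these treatments as biological, and the sources used here do not say how the cultures were kept apart, so p-values measure the spread between these libraries.

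ESCs in serum are a mixed population that sits between the naive state of the early blastocyst and the primed state of the epiblast after implantation. Cells that leave the naive state switch on factors of the early epiblast, such as Otx2, Pou3f1, and the ligand Fgf5, and at gastrulation the primitive streak switches on the T-box factors T and Eomes and the homeobox factors Mixl1 and Gsc under Nodal and Wnt signals. Epithelial cells then exchange E-cadherin for N-cadherin (Cdh2) as they become mesenchymal. Dppa2 and Dppa4 are a pair of small nuclear proteins with a SAP domain that are present in early embryos and ESCs. The design sets cells depleted of either factor against control cells, and here the markers of later stages are read in that comparison.

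None of the 10 genes passed the test in either knockdown, where 3.44% of all genes tested did in each. Fgf5 came nearest, with all 3 libraries of each knockdown below all 3 control libraries. Such a separation was found for 8.2% of all genes with Dppa2 siRNA and for 10.2% with Dppa4 siRNA. T differed from control by -0.69 with Dppa2 siRNA and by 0.14 with Dppa4 siRNA, and neither difference nor that between the knockdowns passed. Otx2 was the gene with every Dppa2 siRNA library above every control library, as for 9.57% of all genes. Among related genes in lists, Sox3 and Mesp2 fell in both knockdowns, and Cdh3 fell with Dppa4 siRNA. The calls of Sox3 and Mesp2 with Dppa2 siRNA and of Cdh3 held with each library left out, and those of Sox3 and Mesp2 with Dppa4 siRNA did not. Sp5, Sall2, and Vim fell with Dppa2 siRNA and Sox17 rose with Dppa4 siRNA, in calls that were each lost when particular libraries were left out, for Vim any of the 9. Beside Sox17, the primitive endoderm marker Gata6 rose by 1.44 with Dppa4 siRNA, a call that was not examined with libraries left out. In bulk RNA, fewer cells that express a gene cannot be told apart from less RNA per cell.

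Values are the normalized log2 expression values that the authors deposited. The estimated number of reads on genes was 17.2 to 40.0 Mreads per library, and libraries correlated with r between 0.94 and 0.99 over the 14601 genes tested. On the log2 scale the Dppa2 transcript fell by 3.49 under its siRNA (adjusted p = 2.1e-05, limma), and the Dppa4 transcript fell by 0.93 under its own (adjusted p = 0.00028, limma). The ESC markers were high in every library, with Pou5f1 at 10.1 or above and Nanog at 7.78 or above. The 6 tested markers of 2C-like cells, a rare state that resembles the embryo at its first cleavage, all fell in both knockdowns. Their summed log2 level was 6.10 to 6.25 in control cells, -1.08 to 0.19 after depletion of Dppa2, and -1.11 to -0.26 after depletion of Dppa4. The part of that loss in the marker values below was not tested. The summed level of 7 primitive endoderm markers was 5.86 to 6.19, 6.02 to 6.08, and 6.04 to 6.14 in the 3 groups. Lama1, at 5.57 to 5.87 in control libraries, makes up most of this sum, which says little about the other markers. In each knockdown 6 of the 7 had a difference above 0, with list medians of 0.57 and 0.80. The summed level of 7 trophoblast markers, a list that also holds Eomes, was 5.80 to 6.06, 5.92 to 6.16, and 5.69 to 5.81. The summed level of 7 fibroblast markers was 3.12 to 3.37, 3.40 to 3.64, and 3.33 to 3.73. Of these Lum and Postn were at 0 reads in all 9 libraries, and Pdgfrb rose in both knockdowns. The part of other cell types in the values below was not tested.

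The promoters of Fgf5 and T are shown because Fgf5 is the gene with separate groups in both knockdowns and T the gene with the smallest p of the 10 between the knockdowns, though it did not pass. The sequences are the RefSeq windows of GRCm38.p6, from 250 bases before to 50 bases after the start, 5′ to 3′ on the strand of the gene, chr5:98253934-98254233 (+) for Fgf5 and chr17:8434173-8434472 (+) for T. Capitals mark exact matches, on either strand, to short letters bound by the families of the genes described, which are CTTTGA for LEF and TCF factors, AGGTGT for T-box factors, TAATCC for OTX factors and GSC, and ATGCAAAT for POU factors.
Fgf5: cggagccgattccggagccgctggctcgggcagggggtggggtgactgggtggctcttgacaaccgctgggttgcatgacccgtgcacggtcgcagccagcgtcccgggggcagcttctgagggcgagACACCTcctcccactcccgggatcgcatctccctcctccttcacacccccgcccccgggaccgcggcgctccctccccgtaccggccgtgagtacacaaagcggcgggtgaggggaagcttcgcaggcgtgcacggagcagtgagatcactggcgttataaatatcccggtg
T: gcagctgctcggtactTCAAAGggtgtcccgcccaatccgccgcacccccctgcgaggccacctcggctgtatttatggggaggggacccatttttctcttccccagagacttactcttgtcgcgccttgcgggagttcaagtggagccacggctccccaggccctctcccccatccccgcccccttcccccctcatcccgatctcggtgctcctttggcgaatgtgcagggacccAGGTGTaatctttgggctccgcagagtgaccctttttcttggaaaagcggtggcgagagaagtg
The Fgf5 window holds 1 T-box match and 29 CG steps, more than 87.1% of the 32851 windows of this length, for which the median is 7. The window of T holds 1 LEF/TCF match, 1 T-box match, and 17 CG steps. These letters are common, since LEF/TCF letters occur in 16.0% of all windows, T-box letters in 13.7%, OTX and GSC letters in 7.06%, and POU letters in 1.74%. For 6 of the 10 genes a window was at hand, 12 windows in all, and the single windows of Eomes and Gsc hold none of these letters. A match describes letters only.

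**Figure D1:**
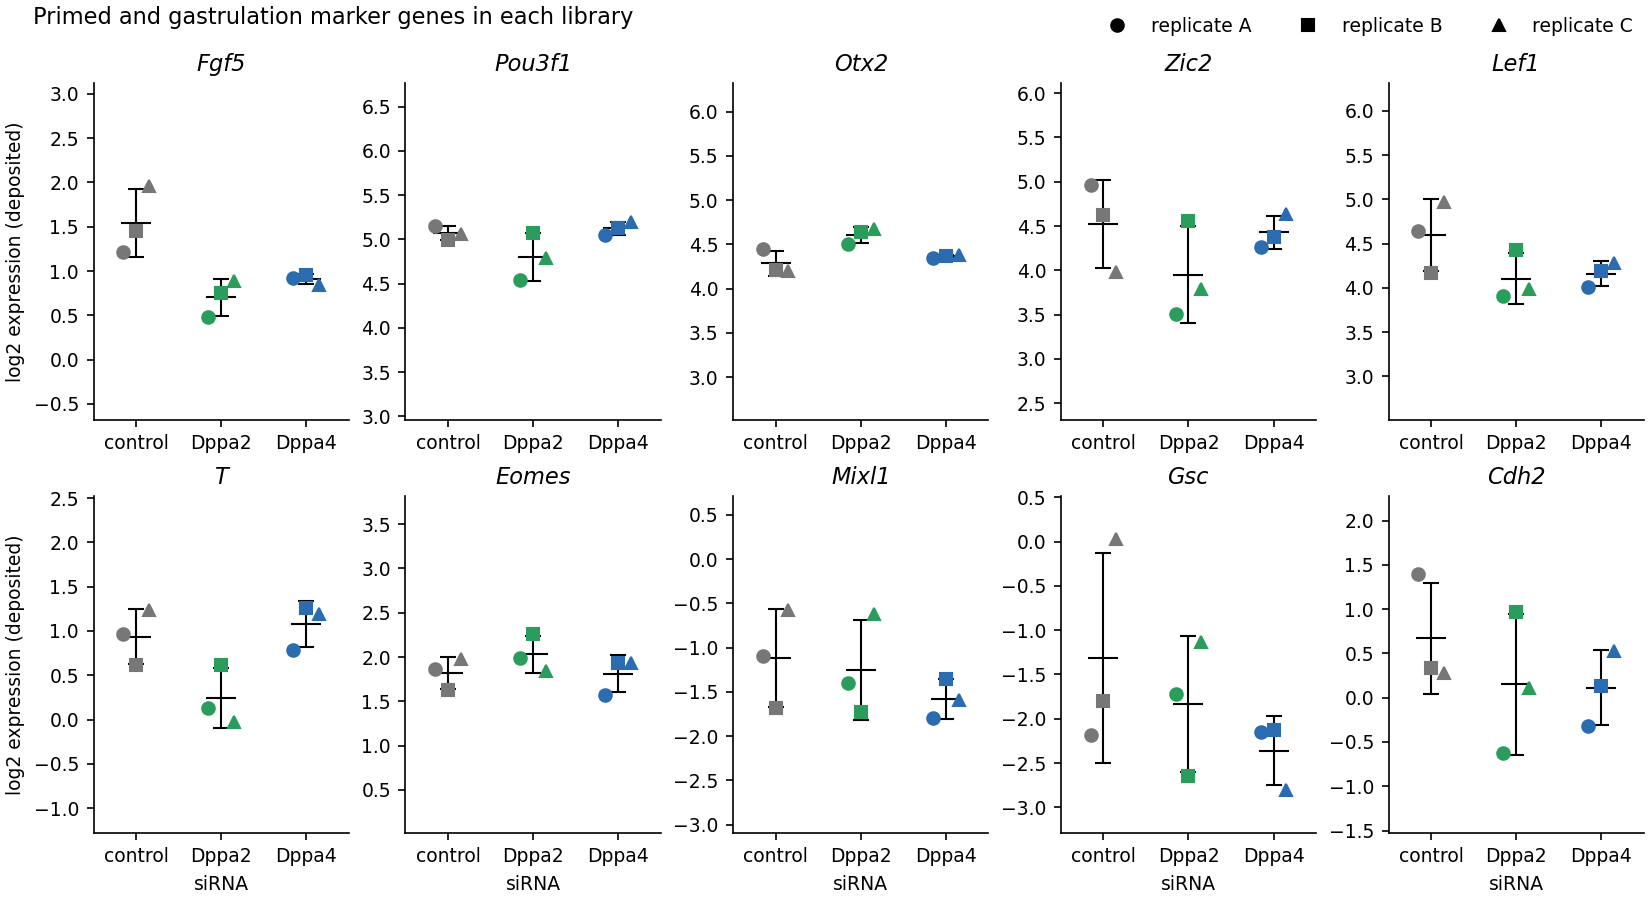
Deposited log2 expression of the 10 genes in each library, by siRNA. Symbols are replicates A, B, and C, bars are mean ± SD (n = 3), and every panel spans the same height on the log2 scale. The Fgf5 values with either knockdown, 0.48 to 0.96, lie below the control values, 1.22 to 1.96.

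Levels in control cells were first set against exonic length, which counts all annotated exons of a gene and can exceed the length of a single transcript. After subtraction of the log2 of the exonic length in kilobases, Pou3f1 stood highest, at 3.48, followed by Zic2 at 3.0, Otx2 at 2.27, and Lef1 at 1.46. Fgf5 at 0.22, Eomes at -0.23, and T at -0.27 came next, and Gsc at -1.66, Mixl1 at -2.32, and Cdh2 at -2.34 were lowest. The control libraries of Zic2 and Otx2, of Otx2 and Lef1, and of Lef1 and Fgf5 did not overlap on this scale, whereas all other neighbors in the order overlapped. Pou3f1 stood at percentile 76.0 of the 13057 tested genes with a length, and Cdh2 at percentile 10.9. The order depends on the length used. Before the subtraction, the control mean of Cdh2 was 0.67, above Mixl1 at -1.12 and Gsc at -1.32.

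Fgf5, a secreted growth factor of the FGF family that is the standard marker of the primed epiblast, lies on chromosome 5 (GRCm38, 98254184 to 98277030, ENSMUSG00000029337). Its log2 expression was 1.22, 1.45, and 1.96 in control libraries A, B, and C, 0.48, 0.75, and 0.89 with Dppa2 siRNA, and 0.92, 0.96, and 0.85 with Dppa4 siRNA. Both knockdowns lay wholly below the control, and they overlapped each other. The inferred reads behind these values were 75 to 154, 36 to 39, and 42 to 65 per library. With Dppa2 siRNA the difference was -0.84 (SE 0.21, 95% interval -1.32 to -0.36), or -44.2% on the linear scale, with an adjusted p of 0.0735 from limma. With Dppa4 siRNA it was -0.63 (95% interval -1.11 to -0.15), or -35.6%, with an adjusted p of 0.151 from limma. Leaving out 1 library at a time gave -1.01 to -0.63 for the Dppa2 knockdown and -0.80 to -0.42 for the other.

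Of the 10 genes, 0 were called with Dppa2 siRNA, where limma called 3.44% of all genes tested (2.27% lower and 1.16% higher), and 0 passed limma together with the intensity difference filter, which 1.91% of genes did. An unadjusted p below 0.05 was reached by 4 of the 10 (Fgf5, Otx2, T, and Lef1), compared with 15.7% of all genes. The groups were separate for 1 gene below the control (Fgf5), as for 8.2% of all genes, and for 1 above (Otx2), as for 9.57%. With Dppa4 siRNA 0 of the 10 were called, against 3.44% of genes (2.34% lower, 1.1% higher, and 1.95% also past the intensity filter). In that knockdown 1 of the 10, Fgf5, had an unadjusted p below 0.05, against 18% of genes. Fgf5 alone had separate groups there, below the control, as did 10.2% of all genes, and 0 of the 10 lay wholly above, where 13.7% of genes did. The median difference of the 10 was -0.50 with Dppa2 siRNA, with 8 below 0, and -0.27 with Dppa4 siRNA, with 7 below 0, while the medians over all genes tested were 0.02 and 0.03. Both comparisons use the same control libraries.

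**Figure D2:**
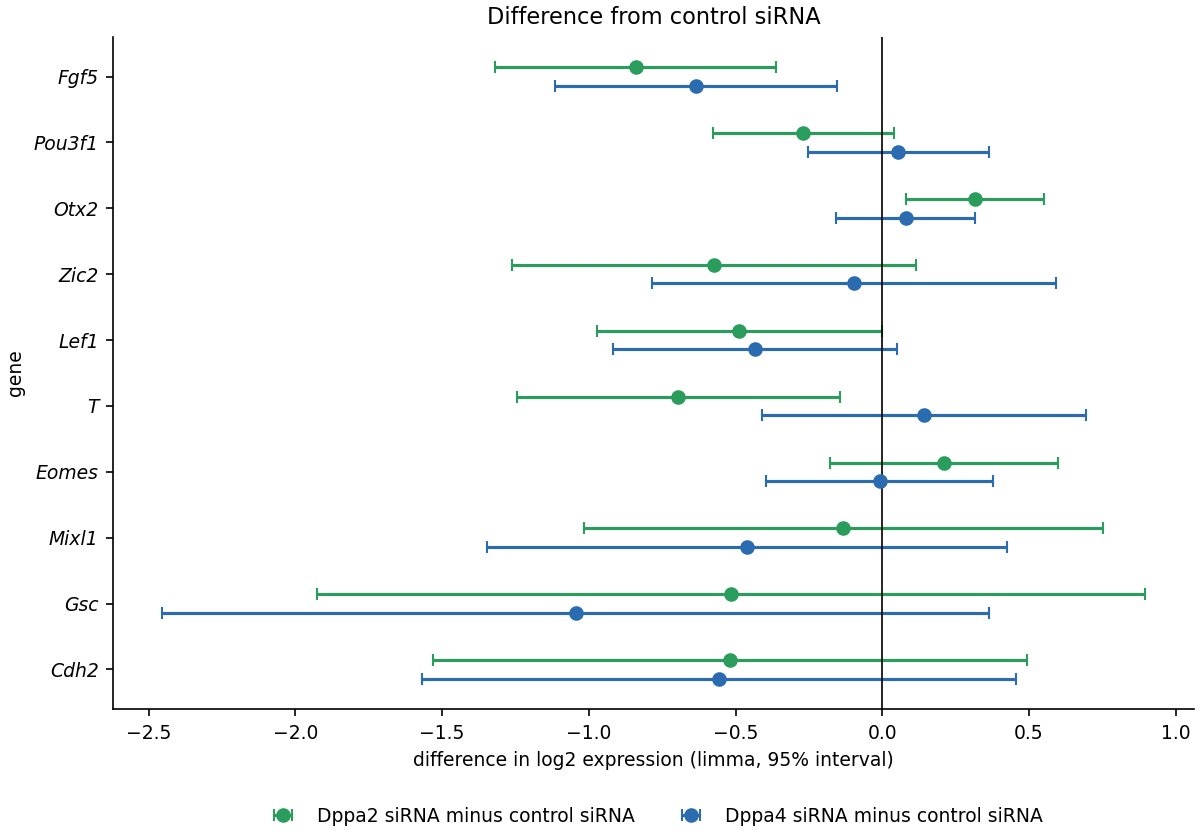
Difference in log2 expression between each knockdown and control siRNA for the 10 genes, with limma's 95% interval. The intervals of Fgf5 lie below 0 in both knockdowns, and those of Gsc are the widest, from -1.92 to 0.89 and from -2.45 to 0.37.

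Among the other epiblast factors, Otx2, a homeobox factor that drives the exit from the naive state, lies on chromosome 14 (48657679 to 48667644, minus strand, ENSMUSG00000021848). Its values were 4.45, 4.21, and 4.20 with control siRNA, 4.50, 4.64, and 4.67 with Dppa2 siRNA, and 4.35, 4.37, and 4.38 with Dppa4 siRNA. The Dppa2 siRNA libraries were all above the control libraries, the lowest by little, and the Dppa4 siRNA libraries lay within the control range. The differences were 0.32 (SE 0.10, 95% interval 0.08 to 0.55, adjusted p = 0.169 from limma) and 0.08 (95% interval -0.16 to 0.31, adjusted p = 0.788 from limma). The span of another gene model of the same strand, Gm49154, overlaps that of Otx2, and Gm42449 overlaps Lef1 likewise. Whether they share exonic bases was not examined, and reads on any such bases could not be assigned.

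Pou3f1 (Oct6), a POU factor of the epiblast and early neural tissue, lies on chromosome 4 (124657646 to 124660655, ENSMUSG00000090125). Its values were 5.16, 4.99, and 5.06 with control siRNA, 4.54, 5.08, and 4.79 with Dppa2 siRNA, and 5.05, 5.13, and 5.19 with Dppa4 siRNA. Replicates A and C of Dppa2 siRNA were below the control libraries and replicate B was among them, and the Dppa4 siRNA libraries overlapped the control. The differences of -0.27 (95% interval -0.58 to 0.04, adjusted p = 0.408 from limma) and 0.06 (95% interval -0.25 to 0.36, adjusted p = 0.908 from limma) did not pass.

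Zic2, a zinc finger factor that binds enhancers in the epiblast and later patterns neural tissue, lies on chromosome 14 (122475435 to 122479852, ENSMUSG00000061524). It read 4.97, 4.62, and 3.98 with control siRNA, 3.50, 4.56, and 3.79 with Dppa2 siRNA, and 4.27, 4.38, and 4.64 with Dppa4 siRNA. The control libraries themselves were spread from 3.98 to 4.97, and both knockdowns overlapped them. The differences were -0.57 (95% interval -1.26 to 0.11, adjusted p = 0.437 from limma) and -0.10 (95% interval -0.79 to 0.59, adjusted p = 0.931 from limma).

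Lef1, the transcription factor that carries β-catenin to Wnt target genes and that rises as cells leave the naive state, lies on chromosome 3 (131110471 to 131224356, ENSMUSG00000027985). Its values were 4.64, 4.16, and 4.97 with control siRNA, 3.90, 4.43, and 3.98 with Dppa2 siRNA, and 4.01, 4.19, and 4.29 with Dppa4 siRNA. Control replicate B lay inside the range of both knockdowns, whereas control replicates A and C were above all 6 knockdown libraries. The differences were -0.49 (95% interval -0.97 to -0.0022, adjusted p = 0.316 from limma) and -0.43 (95% interval -0.92 to 0.05, adjusted p = 0.337 from limma).

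T (Brachyury), the T-box factor that marks the primitive streak and nascent mesoderm, lies on chromosome 17 (8434423 to 8442496, ENSMUSG00000062327). Its log2 expression was 0.96, 0.62, and 1.23 with control siRNA, 0.13, 0.62, and -0.03 with Dppa2 siRNA, and 0.78, 1.26, and 1.19 with Dppa4 siRNA. Dppa2 siRNA replicate B matched the lowest control library and the other two were below it, while Dppa4 siRNA replicates A and C lay within the control range and replicate B just above it. These values rest on 59 to 87, 18 to 34, and 55 to 81 inferred reads per library, and the 18 reads of Dppa2 siRNA replicate C have an exact 95% Poisson interval of 10.7 to 28.4. The difference was -0.69 with Dppa2 siRNA (SE 0.24, 95% interval -1.25 to -0.14, adjusted p = 0.197 from limma) and 0.14 with Dppa4 siRNA (95% interval -0.41 to 0.69, adjusted p = 0.852 from limma).

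The knockdowns were also compared with each other. The study reports that each siRNA also lowered the protein of the other factor, Dppa2 protein the more strongly. The 2 groups are therefore not separate depletions. T was higher by 0.84 with Dppa4 than with Dppa2 siRNA (95% interval 0.28 to 1.39), with an unadjusted p of 0.00748 and an adjusted p of 0.639 from limma. Its Dppa4 siRNA libraries were all above those with Dppa2 siRNA, as was the case for 10.1% of all genes, and those of Otx2 were all below, as for 7.54%. Of the 10 genes 0 were called, where limma called 0.0205% of all genes, which is 3 genes that include the targeted Dppa2 and Dppa4. An unadjusted p below 0.05 was reached by 3 of the 10 (T, Pou3f1, and Otx2), against 6.76% of all genes. For Fgf5 the difference between the knockdowns was 0.21 (95% interval -0.27 to 0.69).

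Eomes, the T-box factor of the anterior streak, mesendoderm, and trophoblast, lies on chromosome 9 (118478212 to 118486132, ENSMUSG00000032446). It read 1.87, 1.62, and 1.98 with control siRNA, 1.99, 2.26, and 1.85 with Dppa2 siRNA, and 1.57, 1.93, and 1.93 with Dppa4 siRNA, on 77 to 173 inferred reads per library. All groups overlapped. Its differences, 0.21 (95% interval -0.18 to 0.60, adjusted p = 0.698 from limma) and -0.01 (95% interval -0.40 to 0.38, adjusted p = 0.990 from limma), had the narrowest intervals among the streak markers.

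Mixl1 and Gsc rested on the fewest reads. Mixl1, a paired-type homeobox factor of mesendoderm on chromosome 1 (180693043 to 180697034, minus strand, ENSMUSG00000026497), had 16, 20, and 18 inferred reads in control libraries A, B, and C, 10, 6, and 12 with Dppa2 siRNA, and 9, 12, and 7 with Dppa4 siRNA. On the log2 scale it was at -1.09, -1.68, and -0.58, at -1.40, -1.72, and -0.62, and at -1.79, -1.35, and -1.59, and all groups overlapped. The differences were -0.13 (95% interval -1.02 to 0.75, adjusted p = 0.962 from limma) and -0.46 (95% interval -1.35 to 0.42, adjusted p = 0.628 from limma).

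Gsc, the homeobox factor of the organizer, lies on chromosome 12 (104471209 to 104473327, minus strand, ENSMUSG00000021095). It had 8, 19, and 27 inferred reads with control siRNA, 8, 3, and 8 with Dppa2 siRNA, and 7, 7, and 3 with Dppa4 siRNA. The log2 values were -2.18, -1.80, and 0.03, then -1.72, -2.65, and -1.13, then -2.15, -2.13, and -2.81. Control replicate C stood above every other library, and the lowest control library lay within both knockdowns. The difference was -0.52 with Dppa2 siRNA (adjusted p = 0.842 from limma) and -1.04 with Dppa4 siRNA (adjusted p = 0.446 from limma). Without control replicate C these became 0.16 and -0.37. On this scale 8 inferred reads stood at -2.18 in control replicate A and at -1.72 in Dppa2 siRNA replicate A. These libraries held an estimated 24.6 and 25.6 Mreads, and the part of this offset in the differences of low genes was not tested.

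Cdh2 (N-cadherin), the adhesion molecule of mesenchymal and neural cells, lies on chromosome 18 (16588877 to 16809246, minus strand, ENSMUSG00000024304). Its values were 1.39, 0.34, and 0.28 with control siRNA, -0.62, 0.97, and 0.11 with Dppa2 siRNA, and -0.32, 0.13, and 0.53 with Dppa4 siRNA, on 18 to 85 inferred reads per library. Control replicate A was the highest of the 9 libraries, and the other control libraries lay within both knockdowns. The differences were -0.52 (95% interval -1.53 to 0.49, adjusted p = 0.721 from limma) and -0.56 (95% interval -1.57 to 0.46, adjusted p = 0.603 from limma). For the low genes, the intervals leave room for changes of more than a factor of 2 in the downward direction, which could not be detected with these libraries.

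Libraries of the same treatment differed, and the 10 genes took part in this unequally. After the mean of its treatment was subtracted from each library, T and Eomes deviated together with r = 0.98 over the 9 libraries, and T and Lef1 with r = 0.91. Of all tested genes, 0.0137% followed T as closely as Eomes did and 0.164% as closely as Lef1 did. The deviations of T were 0.38 in Dppa2 siRNA replicate B and 0.30 in control replicate C, where Eomes deviated by 0.22 and 0.15 and Lef1 by 0.32 and 0.38. T was lowest against its treatment in control replicate B (-0.32), where Eomes and Lef1 were at -0.20 and -0.43. The points share libraries and depth, treatment means use up part of the freedom, and these pairs were picked for their size, so the correlations describe these 9 libraries.

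**Figure D3:**
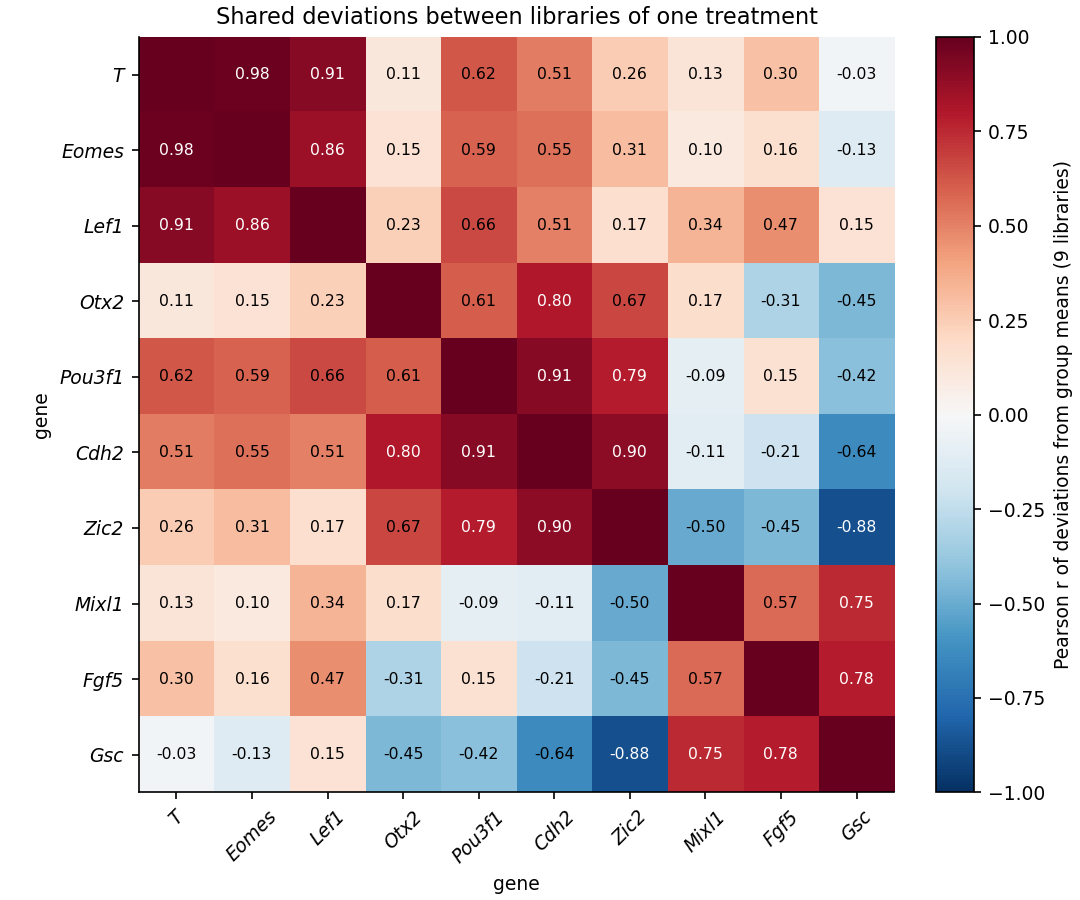
Pearson r between the deviations of the 10 genes from the mean of their treatment over the 9 libraries. T, Eomes, and Lef1 form a block of high values (T with Eomes 0.98), as do Pou3f1, Cdh2, and Zic2 (Cdh2 with Pou3f1 0.91), whereas Gsc runs against Zic2 (-0.88).

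Cdh2 deviated with Pou3f1 (r = 0.91) and with Zic2 (r = 0.90), and Gsc deviated opposite to Zic2 (r = -0.88). Such values were common, since 6.38%, 7.79%, and 19.4% of all tested genes were as far in these 3 cases. They follow the main axis of the differences between libraries of one treatment, which held 58.3% of the spread within treatments. The weight of a gene on this axis went with its exonic length (Spearman rho 0.49 over 13057 genes, which share the same libraries). Zic2 followed the axis with r = 0.97 and Cdh2 with r = 0.86, Gsc ran against it with r = -0.93, and T and Lef1 were nearly unrelated to it, with r = 0.17 and r = 0.06. Fgf5 was at r = -0.62.

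**Figure D4:**
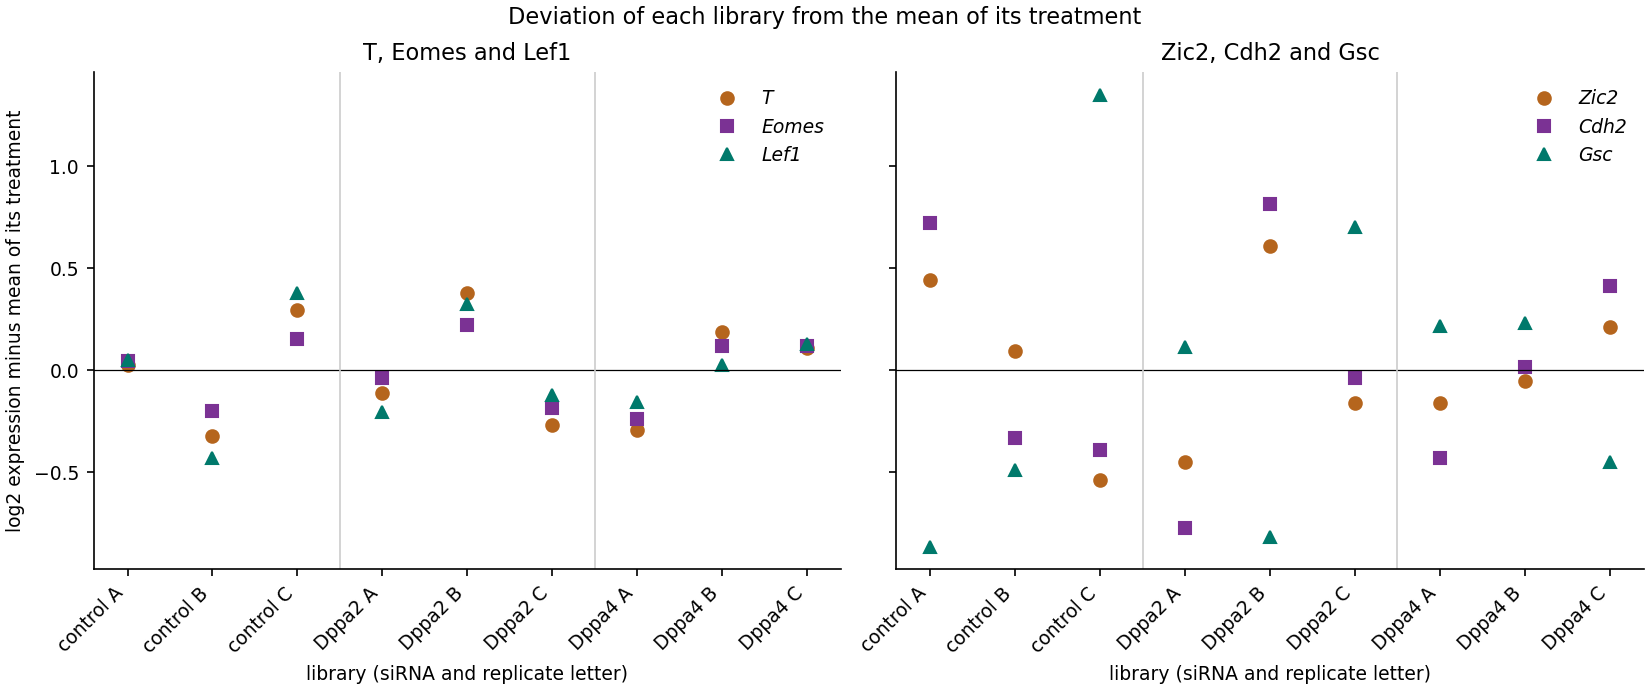
Deviation of log2 expression from the mean of the treatment in each library, for T, Eomes, and Lef1 and for Zic2, Cdh2, and Gsc. T, Eomes, and Lef1 have the same sign in 9 of 9 libraries, and Gsc reaches 1.35 in control replicate C, where Zic2 is at -0.54.

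The genes most alike in their values over the 9 libraries were named for the 3 of the 10 with the widest range. For Gsc these were Ascl2 (r = 0.99), Rab22a (r = 0.97), and Arhgdig (r = 0.96). For Cdh2 they were Ccdc85a, Mapre1, and Glce (r = 0.98 each), and for Fgf5 they were Vsig2 and Ptpn7 (r = 0.96 each) and Syce1 (r = 0.95). They are the highest of 14601 genes and carry no test.

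Related genes were read from the same fit, in lists of 83 genes without the 10, of which 69 were tested. With Dppa2 siRNA 5 of them fell and 0 rose, where 2.27% and 1.16% of all genes did. With Dppa4 siRNA 3 fell and 1 rose, where 2.34% and 1.1% of all genes did. Their median differences were -0.10 and -0.07. No gene of these lists was called between the knockdowns. There an unadjusted p below 0.05 was reached by 15 of the 69 tested, against 6.76% of all genes. Compared with control it was reached by 22 of the 69 with Dppa2 siRNA, against 15.7% of all genes. With Dppa4 siRNA it was reached by 18, against 18% of all genes. The lists were chosen with earlier results of these data known, so these shares are not independent evidence.

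In the list of formative and primed epiblast genes, 2 of 10 fell with Dppa2 siRNA and 1 with Dppa4 siRNA. Sox3, a SOX factor of the epiblast and neural progenitors, was at 2.87 to 3.55 in control cells, at 1.55 to 1.92 under Dppa2 knockdown, and at 1.93 to 2.10 under Dppa4 knockdown. It fell by 1.36 (adjusted p = 0.00599 from limma) and by 1.13 (adjusted p = 0.0149 from limma), with no overlap with the control in either. The Dppa4 call was lost without Dppa4 siRNA replicate A or B (adjusted p = 0.0725 and 0.0828 from limma). Sall2, a zinc finger factor, fell by 0.70 in the Dppa2 knockdown (limma, adjusted p = 0.0130), and the call was lost without control replicate A or B or Dppa2 siRNA replicate A or C. With Dppa4 siRNA Sall2 differed by -0.51 (adjusted p = 0.0510 from limma). The 8 other genes of the list did not pass in either knockdown.

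Of 12 tested streak and mesoderm genes, 7 had a difference below 0 and 5 above with Dppa2 siRNA (median -0.08). With Dppa4 siRNA 4 were below 0 and 8 above (median 0.16). Mesp2, a bHLH factor of presomitic mesoderm and somite boundaries, was the gene called in this list. Its log2 expression was 1.41 to 1.83 in control cells, 0.04 to 0.31 in the Dppa2 knockdown, and 0.67 to 0.91 in the Dppa4 knockdown, so no group overlapped another. It fell by 1.51 (adjusted p = 0.0017 from limma) and by 0.85 (adjusted p = 0.0333 from limma). The first call held with each library left out. The other was lost without any library of control or Dppa4 siRNA, or without Dppa2 siRNA replicate A or C, at adjusted p of up to 0.130 from limma. That call with Dppa4 siRNA also did not pass the intensity filter.

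Of 11 tested Wnt pathway genes, 5 had a difference below 0 and 6 above with Dppa2 siRNA (median 0.05). With Dppa4 siRNA 6 were below 0 and 5 above (median -0.06). Sp5, a direct target of Wnt signals, was the gene called, and it fell by 1.78 in the Dppa2 knockdown (limma, adjusted p = 0.0159). It was at 0.67 to 1.87 with control siRNA, on 68 to 90 inferred reads, and at -0.86 to -0.24 with Dppa2 siRNA, on 12 to 18. With Dppa4 siRNA it was at 0.00 to 0.24, a difference of -1.06 (adjusted p = 0.109 from limma). The call was lost without control replicate A or Dppa2 siRNA replicate A or C, at adjusted p of 0.0557 to 0.0712 from limma.

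In the list of cadherins and genes of epithelial-mesenchymal change, Vim (vimentin), an intermediate filament of mesenchymal cells, fell by 0.33 in the Dppa2 knockdown (limma, adjusted p = 0.0429), from 7.04 to 7.07 in control libraries to 6.71 to 6.73. That call was lost when any of the 9 libraries was left out, at adjusted p of 0.0627 to 0.168 from limma. Cdh3 (P-cadherin) fell by 0.79 with Dppa4 siRNA (adjusted p = 0.00655 from limma), from 4.43 to 4.62 in control libraries to 3.58 to 3.84. With Dppa2 siRNA the Cdh3 values were 4.11 to 4.31, a difference of -0.33 (adjusted p = 0.181 from limma). Zeb2, a repressor of E-cadherin, differed by -1.08 (adjusted p = 0.284 from limma) and -0.97 (adjusted p = 0.302 from limma).

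Of 6 tested endoderm and organizer genes, Sox17, a SOX factor of definitive and extraembryonic endoderm, rose by 1.20 with Dppa4 siRNA (adjusted p = 0.0348 from limma). It was at -0.75 to -0.13 with control siRNA, 0.61 to 0.73 with Dppa4 siRNA, and -0.17 to 0.51 with Dppa2 siRNA, where the difference was 0.74 (adjusted p = 0.176 from limma). The call was lost without control replicate A or C or any Dppa4 siRNA library, at adjusted p of up to 0.143 from limma. The Sox17 call also did not pass the intensity filter. Of the 7 primitive endoderm markers, 1 was called, Gata6, which rose by 1.44 with Dppa4 siRNA (adjusted p = 0.0132 from limma) and differed by 0.75 in the Dppa2 knockdown (limma, adjusted p = 0.159). The Gata6 call did not pass the intensity filter, rested on 22 to 84 inferred reads in control libraries, and was not examined with libraries left out. The median differences of the 7 markers were 0.80 and 0.57, and Sox7 differed by 2.02 (adjusted p = 0.0788 from limma) and 1.60 (adjusted p = 0.167 from limma). The part of primitive endoderm cells in the Sox17 values was not tested.

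**Figure D5:**
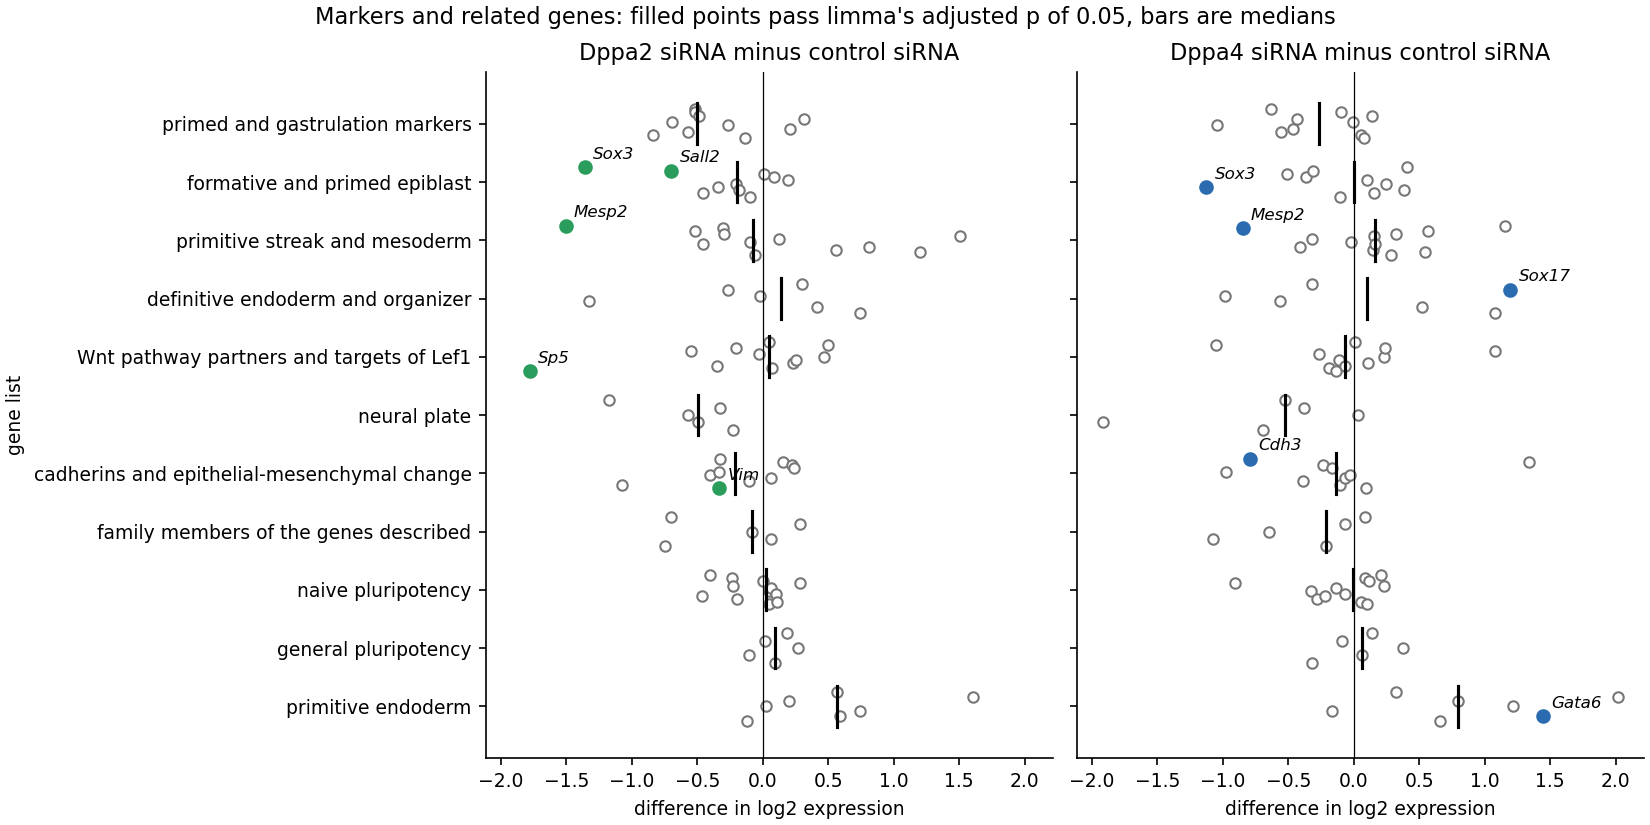
Difference in log2 expression from control siRNA of each tested gene in the marker set and the related lists, for Dppa2 siRNA and Dppa4 siRNA. Filled and named points pass limma's adjusted p of 0.05, open points do not, and bars are list medians. None of the 10 markers is filled (medians -0.50 and -0.27), and Mesp2 and Sox3 are filled on both sides.

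In the neural plate list 0 of 5 tested genes passed. Rax, a homeobox factor of the eye field, differed by -1.17 (adjusted p = 0.329 from limma) and -1.92 (adjusted p = 0.0928 from limma), on 17 to 50 inferred reads with control siRNA and 2 to 10 with either knockdown. Of 5 tested family members of the 10 genes 0 passed. Pou3f3, a relative of Pou3f1, differed by -0.70 and -1.08 (adjusted p = 0.779 and 0.497 from limma) on at most 17 inferred reads. In the naive pluripotency list 0 of 12 passed, with medians of 0.02 and 0.00, and Dppa3, a maternal and naive factor, differed by -0.19 and -0.91 (adjusted p = 0.921 and 0.214 from limma). In the general pluripotency list 0 of 5 passed, and Utf1 differed by 0.27 and 0.38 (adjusted p = 0.440 and 0.210 from limma). Of the trophoblast markers 0 of 6 tested passed, Krt8 differing by 0.38 and 0.14 (adjusted p = 0.408 and 0.789 from limma). Of the fibroblast markers 3 of 7 were tested, and Pdgfrb rose by 1.08 (adjusted p = 0.00718 from limma) and 0.90 (adjusted p = 0.0173 from limma). The Pdgfrb calls were not examined with libraries left out, and the call with Dppa4 siRNA did not pass the intensity filter.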

How the data were processed

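RNA-seq libraries of siRNA-treated E14 ESCs were used, 3 per treatment, grouped by the sample labels. The authors trimmed the reads with Trim Galore (0.4.5 in the notes to the samples), aligned them with HISAT2 2.0.5 to GRCm38, quantitated them on mRNA probes by strand in SeqMonk, matched the cumulative distributions of the libraries, and deposited the result as normalized log2 values for 25965 genes. DESeq2 was used by the authors for calls, with an intensity difference filter. The Dux transcript is not reported here. The 10 genes and the lists were chosen with earlier results of these data known.

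limma 3.58.1 (R 4.3.3) with an intensity trend (3.04 prior degrees of freedom) took the place of the authors' DESeq2, because whole reads were not at hand for all genes. It was fitted to all 9 libraries, with treatment as the only term, for the 14601 genes above -2 in at least 3 libraries, two-sided, and genes were called at an adjusted p (Benjamini-Hochberg) below 0.05. The intensity filter was rebuilt from the 1% of genes nearest in mean expression. The script was tested on simulated data. All 10 genes passed the filter on low values.

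The reads behind a value were counted off along the sorted unique values of its library, 1 read per step up to 300. A step that no gene holds would make the number too low. Totals come from the slope between 100 and 300 reads and are approximate. Intervals of reads cover counting error only. Exonic lengths come from GENCODE, matched for 86.9% of genes. Genes of the lists were named where called, or where the mean difference over both knockdowns was the largest of the list. Other markers named for the check of cell type fall outside this rule. The alternatives were a replicate block, quantile normalization, median centering, no filter and a stricter filter, no trend, a fit of 2 groups only, a floor at -2, the intensity filter as call rule, and each library left out. Tables and figures were made in Python 3.11.15 (pandas 2.3.3, scipy 1.17.1, numpy 2.4.6, matplotlib 3.10.9).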

Additional observations from a re-analysis of the deposited data

How the results depend on the processing

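The count of the 10 genes called was 0 in all 18 alternatives with Dppa4 siRNA and between the knockdowns, and in 17 of 18 with Dppa2 siRNA. Without a filter on low values 2 were called with Dppa2 siRNA, Fgf5 and Otx2 (adjusted p of 0.031 for each from limma, with ranges over the alternatives of 0.031 to 0.250 and 0.031 to 0.483). That setting called 9140 genes, 8245 of them higher, of which 7462 sat at the lowest value of every library, a value that itself differs between libraries.

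For all genes the counts of 502 with Dppa2 siRNA and 502 with Dppa4 siRNA became 279 and 284 with the intensity filter, 230 and 294 with 2 groups only, and 238 and 212 with the replicate block, and 120 to 413 and 149 to 496 with a library left out. Without control replicates A, B, and C they were 177, 120, and 301 for Dppa2 and 149, 149, and 308 for Dppa4. The Dppa2 count was 255 and 233 without its replicates A and C and 300 without Dppa4 siRNA replicate B, and the Dppa4 count was 206, 184, and 279 without its replicates A, B, and C. Libraries of the same letter did not deviate together (correlations of -0.58 to 0.37, above 0.1 in 2 of 9 pairs), so the block rests on a shared letter only. The share of lower calls rose from 66.1% and 68.1% to 86.1% and 85.4% under the block, and to 90.4% and 85.4% with 2 groups only. The 3 calls between the knockdowns became 1 under the block, 5 without the filter, and 1 to 3 with a library left out. The 5 related genes called with Dppa2 siRNA became 2 under the block, 2 with 2 groups only, 15 without the filter, and 2 to 5 with a library left out. Over the alternatives their adjusted p from limma ran up to 0.028 for Mesp2, 0.039 for Sox3, 0.078 for Sp5, 0.082 for Sall2, and 0.222 for Vim. The 4 called with Dppa4 siRNA became 1 under the block, 2 with 2 groups only, 2 with the intensity filter, and 1 to 4 with a library left out, and their adjusted p ran up to 0.049 for Cdh3, 0.083 for Sox3, 0.130 for Mesp2, and 0.143 for Sox17. Where no cause is named, the cause was not tested. The share of lower calls was 66.3% and 68.3% with quantile normalization and 66.4% and 68.1% with centering.

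Some differences changed sign with a library left out. With Dppa2 siRNA they ran from -0.45 to 0.14 for Mixl1 and from -0.95 to 0.16 for Gsc, and with Dppa4 siRNA from -0.019 to 0.29 for T, from -0.11 to 0.11 for Eomes, and from -0.37 to 0.13 for Zic2. Between the knockdowns they ran from -0.048 to 0.22 for Lef1 and from -0.42 to 0.37 for Cdh2. Mixl1 and Gsc were not tested under the stricter filter. Mixl1 and Gsc had under 30 inferred reads in every library.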
